A study of Homo sapiens with 2 samples.

Results

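The regions described here are exon-intron boundaries with no transcript support in the deposited files. In the deposited files a boundary is a window of 62 bases centred on an exon edge, with 31 exonic and 31 intronic bases. An EI boundary lies at the start of an intron (exon to intron) and an IE boundary at its end (intron to exon). A boundary was taken when the files listed 0 supporting Ensembl transcripts, 0 mRNAs and 0 ESTs for it, when it had at least 20 reads over both libraries, and when its gene had at least 200. Of 429011 boundaries, 352522 had no support and 12371 met all the minima, which is 3.51% of the unsupported ones. Of the members, 2011 did have support from an mRNA or EST of another species, which the choice did not use. Of the unsupported boundaries, 208241 (59.1%) had 0 reads in both libraries. Of 75023 boundaries with transcript support, 19457 (25.9%) met the same read minima.

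The reads come from polyadenylated RNA of 2 human colorectal cancer cell lines, with 1 library of each. MIP101 was derived from a liver metastasis. The drug 5-fluorouracil (5-FU), to which it is sensitive, inhibits thymidylate synthase and is also built into RNA. MIP/5FU is a single resistant clone, obtained from MIP101 by passage in rising 5-FU. Its IC50 was 10-fold higher, it was maintained in 5 µM 5-FU, and both cultures had grown for about 48 hours without drug when RNA was taken. Differences from MIP101 may therefore belong to the clone as well as to resistance, and these cannot be told apart. The total of reads assigned to genes was 200141071 in MIP101 and 109693681 in MIP/5FU, and boundary reads numbered 3438984 and 1948334. With 1 library per line no difference has a replicate check and no test was made. Intervals cover counting error only, and PCR reads without molecular identifiers are not independent molecules. Strand is not marked by the protocol, so where genes on both strands overlap, their reads cannot be told apart. The epithelial markers KRT8, KRT18, CDH1 and CDX2 were at 214 to 3844 RPM (reads per 1000000 gene reads) in both lines, whereas CDX1 was at 0.475 and 0.474 RPM, LGALS4 at 1.79 and 0.720, KRT20 at 2.86 and 19.4 and VIL1 at 125 and 53.4. The part of these differences in the results was not tested. The blood, endothelial and hepatocyte markers examined were at or below 0.620 RPM, and the 4 fibroblast markers were at 0 in both lines (DCN), 0.360 and 0.337 RPM (COL1A1), 8.29 and 0.346 RPM (COL3A1) and 12.3 and 16.3 RPM (PDGFRB).

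An intron is removed when the spliceosome joins the donor site at its start, which usually begins with GT, to the acceptor site at its end, which usually finishes with AG after a run of pyrimidines. A retained intron stays in the polyadenylated RNA, often in the nucleus, and many such transcripts are degraded by nonsense-mediated decay if they reach the cytoplasm. A fully retained intron gives reads across both of its edges. Reads across a single edge can come instead from an alternative donor or acceptor inside the intron, a transcription start, or an early polyadenylation site. For this reason the EI and IE boundaries of each intron were paired.

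The first sequences shown are introns that were bounded by members at both ends and that stood out below for their read share or for its difference between the lines. They were read from the transcripts of GENCODE release 29 (build GRCh38), in which at least 1 transcript keeps the whole intron. Exonic bases are in lower case and the intron is in capitals, so that the GT at its start and the AG at its end can be seen. The coordinates include the 15 exonic bases on each side.

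EML3 exons 17 to 18, chr11:62604027-62604127, minus strand: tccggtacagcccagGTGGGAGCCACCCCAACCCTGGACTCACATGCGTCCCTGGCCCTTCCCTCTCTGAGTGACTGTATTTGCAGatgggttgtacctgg

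PTBP1 exons 5 to 6, chr19:804194-804306, plus strand: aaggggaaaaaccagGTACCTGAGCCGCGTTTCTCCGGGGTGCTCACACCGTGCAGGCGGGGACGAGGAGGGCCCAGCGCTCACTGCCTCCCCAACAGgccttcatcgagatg

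FHOD1 exons 21 to 22, chr16:67229704-67229807, minus strand: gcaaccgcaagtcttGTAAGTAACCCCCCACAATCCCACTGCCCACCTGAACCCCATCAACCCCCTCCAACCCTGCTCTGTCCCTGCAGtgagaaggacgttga

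POLR2B exons 21 to 22, chr4:57023566-57023676, plus strand: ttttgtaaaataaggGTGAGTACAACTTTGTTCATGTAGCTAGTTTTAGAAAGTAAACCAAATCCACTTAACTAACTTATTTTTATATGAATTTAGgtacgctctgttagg

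IMPDH2 exons 2 to 3, chr3:49028518-49028772, minus strand: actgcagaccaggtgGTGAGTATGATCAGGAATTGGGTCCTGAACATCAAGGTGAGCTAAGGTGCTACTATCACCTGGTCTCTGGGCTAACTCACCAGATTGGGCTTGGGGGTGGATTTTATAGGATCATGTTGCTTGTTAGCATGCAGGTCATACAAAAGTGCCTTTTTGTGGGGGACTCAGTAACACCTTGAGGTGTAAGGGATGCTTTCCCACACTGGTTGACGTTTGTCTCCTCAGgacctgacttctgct

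These 5 introns were 71, 83, 74, 81 and 225 bases long, in that order. Their GC content was 60.6% in EML3, 69.9% in PTBP1, 60.8% in FHOD1, 27.2% in POLR2B and 48.0% in IMPDH2. Single boundaries are shown next for 3 further introns, with the 31 intronic bases in capitals. For XPO1 the end of the intron is given because it belongs to an intron called higher at both ends. Both ends of the LAMA5 intron are given because it is one of the most retained introns in a gene with much spliced RNA. For SYVN1 the end of the intron is given because this end was called higher.

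XPO1 exons 9 to 10, IE end, chr2:61498762-61498823, minus strand: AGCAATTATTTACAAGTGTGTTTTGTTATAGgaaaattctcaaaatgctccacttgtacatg

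LAMA5 exons 42 to 43, EI end, chr20:62325285-62325346, minus strand: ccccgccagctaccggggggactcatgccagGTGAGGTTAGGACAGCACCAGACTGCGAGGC

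LAMA5 exons 42 to 43, IE end, chr20:62324524-62324585, minus strand: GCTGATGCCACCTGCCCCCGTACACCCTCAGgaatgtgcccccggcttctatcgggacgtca

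SYVN1 exons 13 to 14, IE end, chr11:65129885-65129946, minus strand: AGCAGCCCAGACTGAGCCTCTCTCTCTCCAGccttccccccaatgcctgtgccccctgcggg

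The members were spread over 5178 of the 14095 genes with at least 200 reads (36.7%). A gene held a median of 2 members, 2521 genes held 1, and 110 genes held at least 10. IE boundaries were more frequent than EI boundaries, at 7537 and 4834, although the unsupported boundaries of these genes were nearly even (125535 IE and 125365 EI). Read counts over both libraries ran from 20 to 11332, with quartiles of 25, 36 and 63. Just inside the limit, 646 members had exactly 20 reads (medians of 12 in MIP101 and 8 in MIP/5FU), and just outside it 694 boundaries had 19 (medians of 11 and 8). The median member held 0.162% as many reads as its gene, and the 5th and 95th percentiles were 0.0216% and 2.94%. Reads covered every base of the window for 59.8% of members in MIP101 and 48.96% in MIP/5FU. The authors' own flag for expression above background was set for 2128 members in MIP101, 2223 in MIP/5FU and 1839 in both. It was set in neither line for 9859 members, so most of them lie under the level that the authors required.

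Most members sat in coding sequence: 12247 were in protein-coding genes, and 89.5% had coding bases on the exonic side. Some windows could hold reads from elsewhere. Intronic bases overlapped an exon region of the files for 1303 members, 749 lay inside the span of another gene, and 1658 had masked repeat bases. In 46 members of 37 genes the boundary had more reads than the gene itself. Of the 10 highest members 3 belong to RPS2P55 (AC092268.4 in the files), a processed copy of the ribosomal protein gene RPS2. At its EI boundary of exon 1 there were 5356 and 5959 reads (MIP101 first, here and below where 2 values are joined), where the gene had 1488 and 794. Copies of RPS2, EEF1A1 and KRT8 share sequence with very abundant mRNAs, so reads at these boundaries cannot be assigned to the copy with certainty.

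Among the other highest members, PTMA (6337 and 3599 reads), HNRNPA2B1 (5432 and 2889) and RAN (3560 and 2069) had an exon region of the files under the intronic side. Without such overlap the highest member in a protein-coding gene was in GAPDH. GAPDH, a glycolytic enzyme, had 3916 and 2758 reads at the EI boundary of exon 9, 0.412% and 0.409% of its gene reads. HSPA8, the constitutive HSP70 chaperone, had 2455 and 1151 reads at the IE boundary of exon 9, 0.282% and 0.281% of its gene reads. LSM7, a subunit of the LSM ring that binds the U6 small nuclear RNA, had a higher proportion. Its IE boundary of exon 2 held 2099 and 1038 reads, equal to 30.6% and 26.2% of the gene reads. RPS3, CALM2, PABPC1, ALDOA, KRT8, RPS4X and SRP14 followed with 683 to 2039 reads per library. Among the 10 highest members in protein-coding genes without overlap, none was called different between the lines.

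Introns with members at both ends were the minority case. Of 9406 introns with at least 1 member, 1706 had members at both ends, 2621 at the EI end alone and 5079 at the IE end alone. Where the other end was also unsupported, the split was often steep. The median was 32 reads at the EI member against 4 at the other end in 1707 introns, and 36 at the IE member against 3 in 3932 introns. The member exceeded the other end at least 8-fold in 927 and 2603 of these introns. A steep split also occurred with members at both ends: the HSPA8 intron between exons 8 and 9 had 2455 and 1151 reads at its IE end but 45 and 21 at its EI end.

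Where both ends were members, their reads were mostly alike. The choice sets part of this, since each end needed at least 20 reads and the upper quartile of all members was 63. How often 2 unrelated members lie as close was not computed. In 1470 of the 1706 introns (86.2%, 95% Clopper-Pearson interval 84.4 to 87.8) the ends lay within 2-fold of each other, and these are called balanced introns here. The median ratio of the higher to the lower end was 1.29, and 58 introns were more than 4-fold apart. More reads lay at the IE end in 904 and at the EI end in 730. Over the 1706 pairs, log2 reads of both ends had a Pearson r of 0.586 and a Spearman rho of 0.519, as a description of points that share the gene's level and the library. Both ends of a short intron can also be read from the same fragment, since the mean fragment was 227 bases, so they are not independent there.

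**Figure D1:**
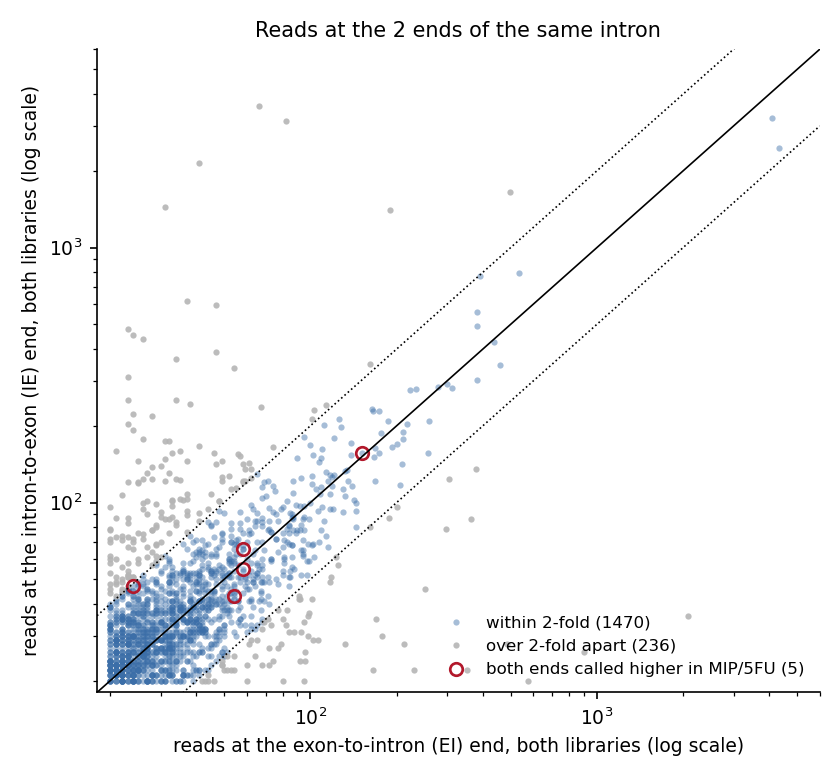
Reads at the EI end (x axis) and the IE end (y axis) of the 1706 introns with members at both ends, summed over both libraries on log scales. The solid line marks equal reads and the dotted lines a 2-fold difference. Blue points are the 1470 introns inside these lines, grey points the 236 outside, and red circles the 5 introns called higher in MIP/5FU at both ends.

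Introns with members at both ends were short. Their length had quartiles of 109, 298 and 907 bases, against 499, 1551 and 4067 bases for all 110043 introns in the same genes whose ends were both unsupported. Both ends were members in 6.12% of introns under 100 bases (374 of 6115), in 3.08% of those from 200 to under 500 bases and in 0.157% of those of 5000 bases or more. Introns with a member at the IE end alone changed less with length, as the plot by length class shows. Last introns made up 18.1% of these pairs and 8.23% of all eligible introns, whereas first introns made up 5.39% and 8.25%. Depth moved with the result: both ends were members in 0.295% of introns of genes with 200 to under 1000 reads and in 4.88% in genes with 100000 or more. Median gene reads were between 13519 and 14683 in every length class under 5000 bases, and 10344 above it.

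**Figure D2:**
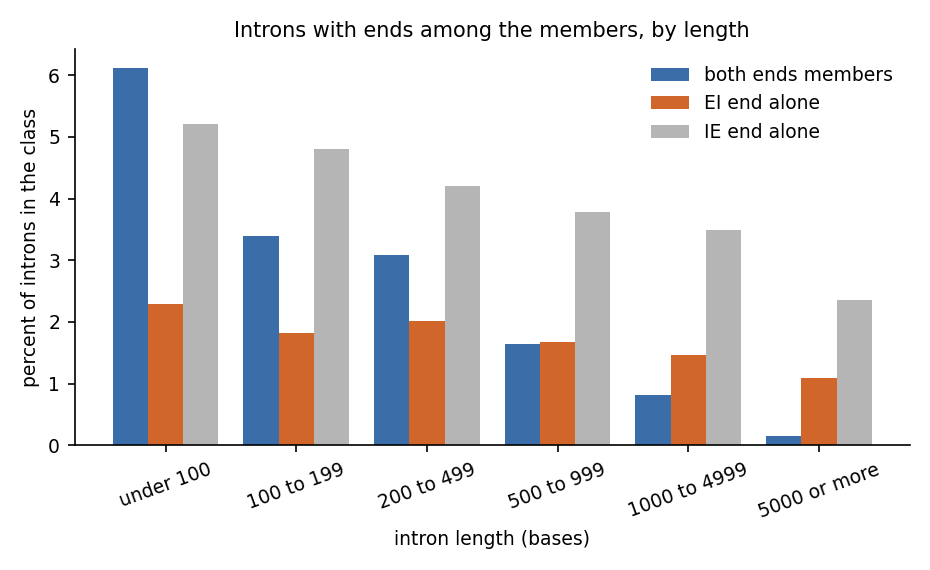
Percent of introns (y axis) in each length class (x axis, bases) with members at both ends (blue), at the EI end alone (orange) or at the IE end alone (grey), out of introns whose ends were both unsupported in genes with at least 200 reads. The blue bars fall from 6.12% under 100 bases to 0.157% at 5000 bases or more.

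A minority of these introns, without support in the annotation of the files, matched introns that are kept whole in a later one. Introns were matched to GENCODE release 29 by gene identifier and length, and equal lengths do not prove that an intron is the same, which holds for the sequences shown above and the small RNA genes below too. Of 1558 matched introns with members at both ends, 198 (12.7%, 11.1 to 14.5) lay whole inside an exon of that release, and 166 of these were in a transcript typed as a retained intron. The share was 3.97% with a member at the EI end alone, 2.77% at the IE end alone and 0.949% (907 of 95574) with none. Among introns under 500 bases it was 19.6% with both ends members and 3.26% with none, and in genes with at least 20000 reads 12.1% and 1.10%. Of the 198 introns, 197 began with GT and ended with AG. The exception was in ALG3, a mannosyltransferase gene, whose intron began with AT and ended with AC. Median GC was 61.5% in these 198 introns (median length 106 bases) and 55.8% in the 907 with no member (median length 174 bases).

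Small nucleolar RNAs are made from the introns of host genes, and 9 of the 1558 introns (0.578%, 0.264 to 1.09) contained a gene of this class in GENCODE release 29. In introns without members the share was 0.133% (127 of 95574). The hosts included HSPA8 (SNORD14D and SNORD14E), GNL3, EIF4G2, ATP5B, SNHG12, RPS3 and PABPC4. In the SNORD14D intron of HSPA8, between exons 6 and 7, reads were 109 in MIP101 and 83 in MIP/5FU at the EI end and 89 and 76 at the IE end. In GNL3, which encodes nucleostemin, the SNORD19 intron was uneven, with 16 and 22 reads at the EI end and 177 and 66 at the IE end. MicroRNA genes lay in 11 of the 1558 introns (0.706%, 0.353 to 1.26) and in 0.360% of introns without members. Among these were an intron of TRIM28 (MIR6807) and one of SYVN1 (MIR6751).

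The next comparison asked whether unsupported boundaries were used more or less in the resistant clone. Summed over all members, reads were 3111 RPM in MIP101 and 3288 RPM in MIP/5FU, 1.06-fold higher (1.053 to 1.062). The ratio was 1.11 for EI members, 1.02 for IE members and 1.01 for boundaries with support. The EI sum includes copies of RPS2 whose reads cannot be assigned with certainty, such as the RPS2P55 boundary with 5356 and 5959 reads. The ratio differed between classes of intron. In protein-coding genes without overlap, the 1548 introns with members at both ends gave a ratio of 1.20 (1.19 to 1.21), and those under 100 bases 1.32 (1.29 to 1.35). The EI end had a ratio of 1.00 (0.988 to 1.01) where it alone was a member (1518 introns), and the IE end 0.956 (0.948 to 0.964) in 3653 introns. The ends under 20 reads opposite to these lone members had a ratio of 1.23 (1.20 to 1.26). The 101785 introns with no member gave 1.19 (1.19 to 1.20), and 1.42 (1.38 to 1.45) under 100 bases. A higher ratio was therefore also found in introns below the read minimum. Total reads at canonical junctions, by contrast, were 0.953-fold those of MIP101 per gene read.

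Each member was then set against its own gene. The index is the log2 ratio (MIP/5FU over MIP101) of the boundary reads minus that of the gene reads, after adding 0.5 reads, so 0 means that the boundary moved with its gene. A member was called when its index was at least 1 in size and its counting interval, at an error rate of 0.001, excluded 0. Index intervals in parentheses are of this kind, and all others are at 95%. Of 12371 members, 85 were called higher in MIP/5FU and 18 lower, 0.833% together (0.687% higher and 0.146% lower). Over all 31842 boundaries tested, 0.857% were called (0.738% higher and 0.119% lower), and over the 19457 with support 0.869% (0.766% higher and 0.103% lower). The share among members was thus near the background. The median index was 0.07, and 89.4% of members lay within 2-fold. Few reads limited the calls: in a gene whose reads stood at the ratio of the library totals, a member with 20 reads in all needed at least 15 of them in MIP/5FU to be called higher, and 0 to be called lower. Among the 8222 members with 20 to under 50 reads, 38 were called higher and 8 lower, among the 3491 with 50 to under 200 reads 44 and 8, and among the 658 with 200 or more 3 and 2.

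**Figure D3:**
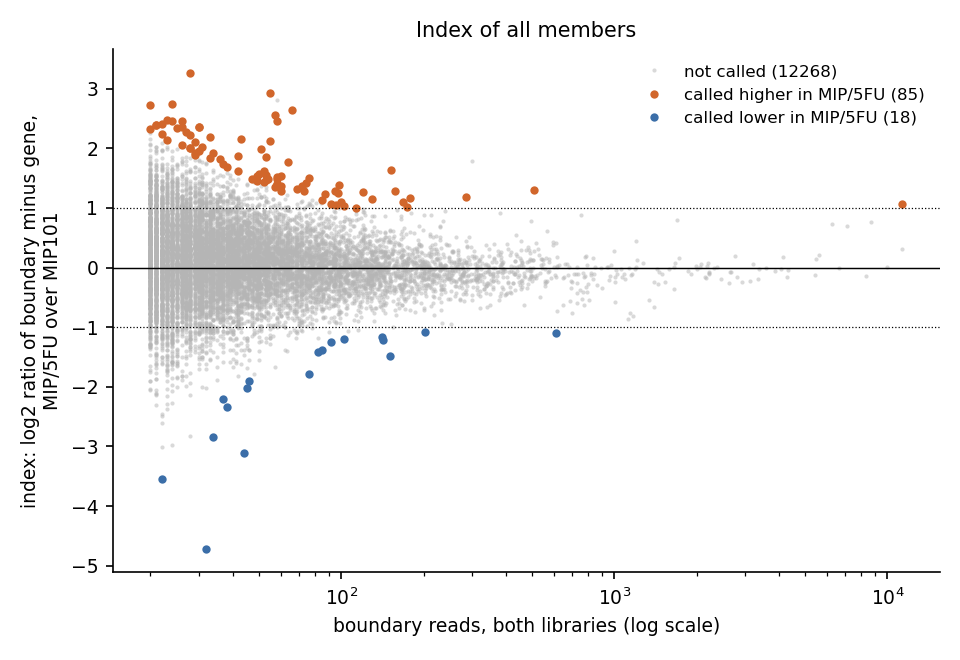
Index of each of the 12371 members (y axis, log2) against its reads over both libraries (x axis, log scale). Orange points are the 85 members called higher in MIP/5FU and blue points the 18 called lower. Dotted lines mark an index of 1 and -1, and the spread of the grey points narrows as reads increase.

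Within genes of 500 or more reads in both libraries, the highest index was in ANKFY1, an endosomal protein. Its EI boundary of exon 20 (chr17:4023922-4023983, hg18) had 5 and 23 reads (index 3.26, 1.18 to 6.51). The other end of that intron went the opposite way, with 21 and 7 reads. TRIM28, the corepressor KAP1, and XPO1, the nuclear export receptor, follow with the intron ends described below. RPL34, a ribosomal protein, had 6 and 18 reads at the IE boundary of exon 6 (index 2.74). RAD50, of the MRE11 complex that processes DNA breaks, had 4 and 16 at the IE boundary of exon 19 (2.73). CDK4, the G1 cyclin-dependent kinase, had 5 and 18 at the IE boundary of exon 4 (2.47), and ACTN4, an actin crosslinker, 6 and 20 at the EI boundary of exon 7 (2.46). These 4 counts are small in MIP101, and their intervals reach below 1. ACYP2, an acylphosphatase, rested on more reads relative to its gene: its EI boundary of exon 1 went from 14 to 43 reads (index 2.57, 1.16 to 4.30), or from 0.919% to 5.57% of the gene reads.

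The members called lower lay mostly at single ends. SEMA3F, a secreted semaphorin, had 43 reads and 1 read at the IE boundary of exon 7 (index -3.11, -14.7 to -0.20), while the EI end of the same intron had 40 and 18. HK1, a hexokinase, had 21 and 1 at the IE boundary of exon 7 (-3.55, -15.1 to -0.46), a window wholly masked as repeat. A boundary that the files list under UGT1A8, in the UGT1A glucuronosyltransferase locus, had 32 and 0 reads, at least 4.31-fold lower than its gene against a floor of 3 reads. The genes of this locus share exons, so the assignment to 1 of them is uncertain. SLC25A39, a mitochondrial carrier, had 32 and 2 reads at the EI boundary of exon 9 (-2.85, -9.18 to -0.33) and 26 and 10 at the other end of the intron. CDC42BPB, a kinase that acts downstream of CDC42, had 69 and 7 at the IE boundary of exon 6, with 2 and 0 at the other end. The NOP58 boundary (AC064836.1 in the files, IE of exon 6) had 33 and 4 reads, and NOP58 is a core protein of box C/D small nucleolar ribonucleoproteins. C2orf81 had 110 and 41 reads at the EI boundary of exon 1, 16.6% and 5.87% of its gene reads.

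Both ends of the same intron were called in the same direction in 5 of the 1706 introns, all higher in MIP/5FU, and in 0 introns lower. Calls of single boundaries also ran mostly higher over all 31842 tested, with 235 higher and 38 lower. With few reads the rule reaches a higher call at a smaller index than a lower call. At 36 reads in all, in a gene at the ratio of the library totals, these were 1.67 and -2.39. Read depth therefore limits what the 0 introns called lower can show. Introns with supported ends were not counted in this way. The 5 introns are described here. All 5 lay in protein-coding genes and overlapped neither an exon region nor another gene. The highest indices of the 5 were in TRIM28. Its intron between exons 8 and 9 (chr19:63751588-63751664, hg18, 77 bases) had 15 and 43 reads at the EI end, and 11 and 44 at the IE end. The indices were 2.46 (1.09 to 4.12) and 2.92 (1.44 to 4.88). The junction that removes this intron had 2399 and 1223 reads and moved with the gene, with an index of -0.0019 (-0.17 to 0.17).

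XPO1 had a 72-base intron of this kind between exons 9 and 10 (chr2:61579432-61579503), with 24 and 34 reads at the EI end and 15 and 51 at the IE end. The other unsupported boundaries of XPO1, 310 reads in MIP101 and 178 in MIP/5FU, had a summed index of 0.10 (-0.36 to 0.55). In BRD2, a bromodomain protein that binds acetylated histones, the 80-base intron between exons 6 and 7 (chr6:33051925-33052004) had the most reads of the 5. They rose from 59 to 93 at the EI end (index 1.63) and from 70 to 87 at the IE end (1.29), beside gene reads of 96301 and 48831. PTBP1, the polypyrimidine tract-binding protein that represses many exons, had 6 and 18 reads at the EI end and 19 and 28 at the IE end of its last intron, between exons 15 and 16 (chr19:761621-761693, 73 bases). Of the 5 introns 4 were thus under 100 bases, against 21.9% of the 1706 pairs. These 4 are shorter than the mean fragment of 227 bases. Reads at both ends can therefore come from the same fragment, and the calls at the 2 ends are not independent.

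IMPDH2, the rate-limiting enzyme of guanine nucleotide synthesis, held the longest of them, 662 bases between exons 5 and 6 (chr3:49039485-49040146). It had 25 and 29 reads at the EI end (index 1.49) and 15 and 28 at the IE end (2.16). Here the rest of the gene moved as well. All 16 unsupported boundaries of IMPDH2 were members, all 16 had an index above 0 (0.27 to 2.16, median 0.73), and 4 were called higher, more than in any other gene. In TRIM28 the other unsupported boundaries had a summed index of 0.47 (0.22 to 0.72), in PTBP1 0.39 (-0.03 to 0.81) and in BRD2 0.34 (-0.16 to 0.83). When the ends were compared with these other boundaries in place of the gene reads, the intron of TRIM28 alone among the 5 kept its call at both ends.

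**Figure D4:**
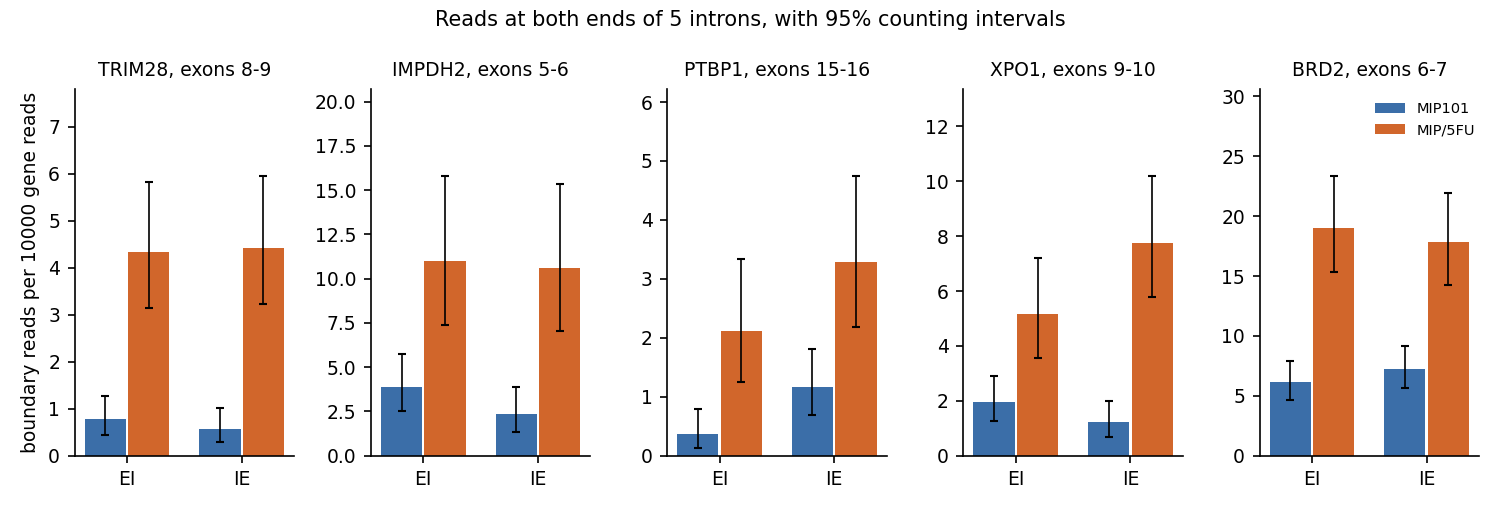
Boundary reads per 10000 gene reads (y axis, a separate scale in each panel) at the EI and IE end of the 5 introns called at both ends, in MIP101 (blue) and MIP/5FU (orange), with 95% Poisson counting intervals. In each panel both MIP/5FU bars stand above both MIP101 bars. In TRIM28 the reads behind the bars are 15 and 11 in MIP101 and 43 and 44 in MIP/5FU.

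In 43 further pairs 1 end was called, 37 higher and 6 lower, and in 37 of the 43 the index of the other end lay on the same side of 0. RAD50 had 7 and 16 reads at the EI end and 4 and 16 at the IE end of the 73-base intron between exons 18 and 19. EZH2, the histone methyltransferase of Polycomb complex 2, had 14 and 19 at the EI end and 5 and 16 at the IE end of the intron between exons 7 and 8. SRRT (AC011895.4 in the files), which links the cap-binding complex to RNA processing, had 15 and 15 at the EI end and 11 and 18 at the IE end of the intron between exons 13 and 14. PELI1, a ubiquitin ligase, was among those called lower, with 38 and 8 at the EI end and 20 and 8 at the IE end of the intron between exons 5 and 6. Over all 1706 pairs both indices were above 0 in 796, both below 0 in 297 and opposite in 613. The Pearson r of both indices was 0.334, and 0.510 in the 281 pairs with at least 50 reads at each end. The ends share the gene's ratio, which is part of each index, and in short introns they can share fragments too.

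The retention share sets the reads of the unspliced form against those of the spliced form. It is the mean of the EI and IE reads divided by that mean plus the reads of the junction that removes the intron. In the 1470 balanced introns, found in 901 genes, the median share was 12.1% in MIP101 and 15.1% in MIP/5FU. It was above 50% in both lines for 245 introns and below 10% in both for 506. The share was higher in MIP/5FU in 956 introns and in MIP101 in 392. The 95% intervals of the lines did not overlap in 31 introns, 29 of them higher in MIP/5FU and 2 higher in MIP101. Introns outside the balanced set were not counted in this way. Reads at intron ends were also higher in MIP/5FU where neither end was a member. In protein-coding genes without overlap those introns gave a ratio of 1.19, and 1.42 under 100 bases. Whether the 29 and 2 differ from that background was not tested. Summed over the balanced introns, the ends were at 484 and 616 RPM, 1.27-fold higher in MIP/5FU, while their junctions were at 4139 and 4002 RPM, 0.967-fold. The read minimum acts on the sum of both libraries, and reads of the deeper MIP101 library make up the larger part of that sum.

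**Figure D5:**
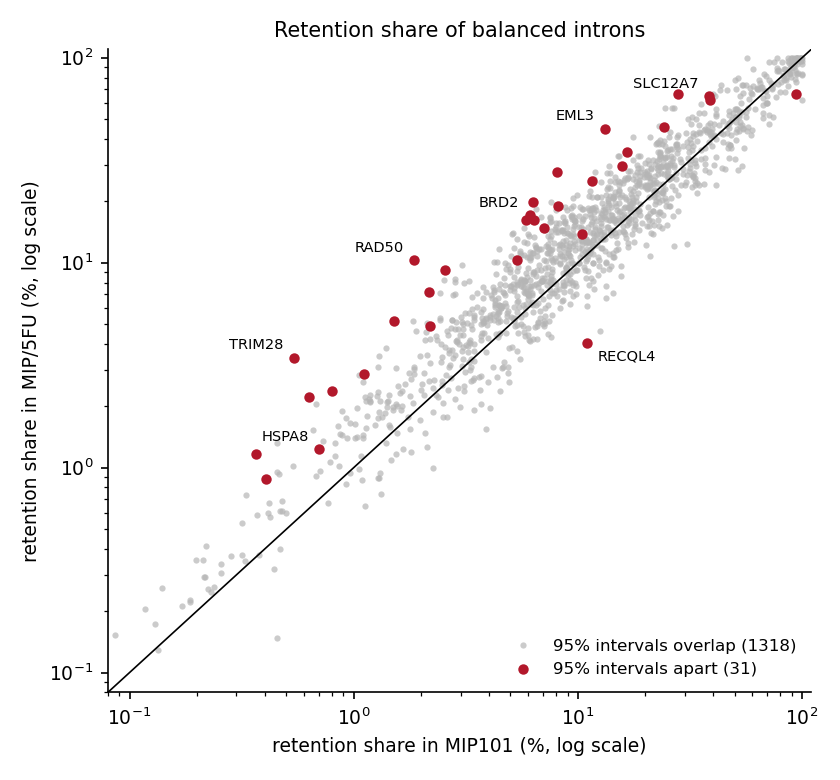
Retention share (%) of balanced introns in MIP101 (x axis) and MIP/5FU (y axis), on log scales, for the 1349 introns with junction reads. Red points are the 31 introns whose 95% intervals did not overlap, and the diagonal marks equal shares. Of the red points 29 lie above the diagonal and 2, in RECQL4 and CCDC183, lie below.

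Among introns with intervals apart, those of genes with much spliced RNA kept small shares. In TRIM28 (exons 8 to 9) the share was 0.539% in MIP101 (0.287 to 0.920) and 3.43% in MIP/5FU (2.502 to 4.591). XPO1 went from 2.55% to 9.23%, IMPDH2 (exons 5 to 6) from 1.52% to 5.22%, PTBP1 (exons 15 to 16) from 0.629% to 2.20% and BRD2 from 6.10% to 17.1%. The sequenced PTBP1 intron between exons 5 and 6 went from 2.18% (1.44 to 3.15) to 4.90% (3.29 to 6.98), and the IMPDH2 intron between exons 2 and 3 from 5.36% to 10.3%. In SOX9, a transcription factor of intestinal stem and Paneth cells, the 570-base last intron had 245 and 138 reads at the EI end and 308 and 184 at the IE end. Its share was 10.5% (9.32 to 11.7) and 13.7% (11.8 to 15.9), and neither end was called. The indices of its ends were 0.07 and 0.15, and that of its junction was -0.34 (-0.52 to -0.16).

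Larger shares were found in genes with fewer spliced reads. The minimum of 20 reads at each end sets part of this contrast. In a gene with few reads it admits only introns with a large share. EML3, a microtubule-associated protein, went from 13.2% (6.23 to 23.6) to 45.1% (30.3 to 60.5) on 8 and 20 EI reads, 10 and 21 IE reads and 59 and 25 junction reads. FHOD1, a formin, went from 24.3% to 46.2%, and POLR2B, the second largest subunit of RNA polymerase II, from 11.6% to 25.1%. SLC12A7, a potassium-chloride cotransporter, went from 38.3% (27.7 to 49.7) to 64.9% (52.1 to 76.3). There the indices of the ends were 0.75 (-0.32 to 1.93) and -0.28 (-1.57 to 0.99), and that of the junction was -1.24 (-2.58 to -0.06). RECQL4, a DNA helicase, had introns in both directions: the share between exons 10 and 11 went from 15.7% to 29.5%, and that between exons 20 and 21 from 11.0% to 4.04%. CCDC183 (AL355987.31 in the files) went from 93.5% to 66.9%, with 4 and 23 junction reads. Of the 31 introns, 15 (48.4%) were under 100 bases.

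The 12 balanced introns with the highest share over both lines were all at 100%, with 0 junction reads in both. Ties were broken by the summed reads of both ends. Of the 12, 5 follow each other in SLC9A3, the sodium-proton exchanger NHE3 of the intestinal brush border, between exons 11 and 16. Their ends had 94 to 155 reads in MIP101 and 61 to 123 in MIP/5FU, and the gene had 3502 and 2628 reads. SRRM2, a large SR-related protein of nuclear speckles, had 177 and 122 reads at the EI end and 190 and 101 at the IE end of the 55 bases between exons 12 and 13, in a gene with 355194 and 193224 reads. No Ensembl transcript in the files joins these exons directly. BCAN had 162 and 98 at the EI end and 132 and 76 at the IE end of the intron between exons 2 and 3. In TLN1 the annotated intron between exons 38 and 39 overlapped an exon region. TUBAP2 (AP002364.4) and EIF4A1P8 (AC073573.27) are copies of tubulin and EIF4A1 genes with gaps of 26 and 4 bases annotated as introns, so the windows of both ends overlap. The remaining members of the 12 were AC097359.2, with 302 and 157 reads at the EI end and 198 and 149 at the IE end, and AC005332.1, with 136 and 73 and with 97 and 45. AC097359.2 is typed as a pseudogene. Its annotated intron is 63 bases long and overlaps an exon region or another gene. A share of 100% says that no read joined these exons at the annotated sites. In all, 121 balanced introns had 0 junction reads, and in 23 of them the files list no Ensembl transcript for the junction.

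With at least 50 junction reads over both lines, no overlap and a protein-coding gene, 1102 balanced introns remained, a choice made after the values were seen. The highest share was in Z93403.1, at 66.2% and 72.1% between exons 3 and 4. In LAMA5, a laminin chain of basement membranes, the intron between exons 42 and 43 (761 bases) had 216 and 97 reads at the EI end, 174 and 107 at the IE end and 165 and 86 at the junction. The share was 54.2% (48.9 to 59.4) in MIP101 and 54.3% (46.8 to 61.5) in MIP/5FU, so the lines did not differ beyond counting error. RHBDL1, a rhomboid protease, had 57.6% and 56.6% between exons 2 and 3. WDR90 had 50.4% and 56.3% between exons 24 and 25. RSKR (AC005726.6 in the files), a kinase, had 54.4% and 45.3% between exons 5 and 6. SLC29A2, the equilibrative nucleoside transporter ENT2, had 51.1% and 44.7% between exons 3 and 4. In this set of 1102 the ends were at 269 and 342 RPM (1.27-fold) and the junctions at 3983 and 3782 RPM (0.949-fold). The share was higher in MIP/5FU in 810 and in MIP101 in 292.

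Some genes held many members. LAMA5 had the most, 43 of its 145 unsupported boundaries, with 13 balanced introns at shares of 6.81% to 54.2% in MIP101 and 8 of the 13 higher in MIP/5FU. FASN, the fatty acid synthase, had 38 of 79, with 10 balanced introns at 0.926% to 3.07% in MIP101 and 0.832% to 5.02% in MIP/5FU. WDR90 had 33 of 69 and RECQL4 26 of 34. AGRN, the proteoglycan agrin, had 26 of 65 and PKD1, polycystin-1, 24 of 88. TRIM28 had 23 of 31, and the share was higher in MIP/5FU in all 8 of its balanced introns, from 0.420% to 2.99% in MIP101 and 0.669% to 4.41% in MIP/5FU. In IMPDH2 it was higher in all 7. In SLC9A3 all 6 balanced introns were at 99.1% or more in both lines.

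Genes of RNA processing, translation and 5-FU metabolism were taken as lists, matched by current and older symbols. The files held 22 of 23 listed SR genes, 77 of 79 ribosomal and 40 of 42 pyrimidine genes, and all genes of the other lists. Of all unsupported boundaries in genes with at least 200 reads, 4.93% were members. The read minimum is a fixed count, so boundaries of genes with many reads reach it more easily. The lists were not matched to other genes by gene reads. Whether their percentages of members, here and below, differ from 4.93% at equal gene reads was not tested. Cytosolic ribosomal proteins had 130 members among 296 unsupported boundaries (43.9%), with RPL34 called higher and none lower. Their 12 balanced introns had low shares, with medians of 0.222% and 0.254%. In genes with this many reads, the read minimum also admits introns with small shares. RPS2, for example, had 59 and 60 reads at the EI end and 55 and 61 at the IE end of the intron between exons 2 and 3, beside 5867 and 6354 junction reads. Translation factors had 97 members (15.04%) with a median index of 0.32, against 0.07 for all members, and 0 of the 97 were called. EEF2, the elongation factor of ribosome translocation, had 7 balanced introns at 0.217% to 0.781% in MIP101 and 0.294% to 1.07% in MIP/5FU.

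SR proteins and their kinases, which promote exon recognition, had 47 members (16.5%), of which the IE boundary of exon 14 of SRPK1 was called higher (15 and 22 reads, index 1.74). SRSF5 (SFRS5 in the files) and SRSF7 (SFRS7) had the most reads, 723 and 372, and 510 and 218, both with an exon region under the intronic side. Heterogeneous nuclear ribonucleoproteins and other regulators had 115 members (16.2%). Those called higher included both ends of the last PTBP1 intron, and 0 were called lower. HNRNPA2B1 had the most reads, 5432 and 2889 at the EI boundary of exon 6 (index -0.14), with an exon region under the intronic side. HNRNPC followed without overlap, with 608 and 203 at the IE boundary of exon 5 (index -0.55). The core spliceosome had 66 members (6.60%) and the RNA surveillance and export list 61 (6.01%), with 0 called in both. In SF3B1, which recognizes the branch point, the intron between exons 20 and 21 had a share of 15.9% (13.3 to 18.9) in MIP101 and 14.2% (10.6 to 18.5) in MIP/5FU. Genes known for regulated retained introns had 41 members (8.51%), and 0 were called lower. TNPO2, a nuclear import receptor, held all 4 of their balanced introns, with shares of 19.2% and 23.8% between exons 7 and 8.

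Pyrimidine and 5-FU metabolism had 54 members (9.18%) and a median index of -0.07. One was called, and it was lower: the IE boundary of exon 34 of CAD, which carries out the first steps of pyrimidine synthesis, had 115 and 26 reads (index -1.16, -2.33 to -0.18). The other end of that intron had 5 and 3 reads, so the reads lay mostly at a single end. Among the balanced introns of CAD, that between exons 17 and 18 had shares of 11.8% and 16.6%, with intervals that overlapped. TYMS, the thymidylate synthase inhibited by 5-FU, had 98 and 89 reads at the IE boundary of exon 5 and moved with its gene (index 0.07, -0.65 to 0.78). RRM1, the large subunit of ribonucleotide reductase, had 212 and 101 at the IE boundary of exon 17 (-0.24). UMPS, which converts 5-FU to its nucleotide, had 0 members: its 8 unsupported boundaries held 14 reads in MIP101 and 5 in MIP/5FU, too few to show a difference. The p53 targets had 20 members (6.02%), of which the EI boundary of exon 9 of CCNG2, a cyclin G, was called higher (58 and 44 reads, index 1.03). That window is wholly masked as repeat. The aminoacyl-tRNA synthetase list had 56 members (8.40%), and the EI boundary of exon 19 of QARS was called higher (11 and 18 reads, index 1.93). The intronic side of this QARS boundary lies inside the span of another gene.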

How the data were processed

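Reads had been assigned by the authors to Ensembl gene features, of release 53 as the names of the files say, on build hg18, named by the submitters' processing notes. For the aligner, the sources used here give no name. Read counts of genes, junctions and boundaries were used raw, as the authors deposited them. Exon region files hold coverage as deposited, summed by the authors over bases, and an average coverage normalized by the authors served as an alternative. The percent of bases covered and the expression flag are the authors' deposited values.

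An intron was taken as a junction that skips no exon, with the most reads where several fit. Levels and ratios have 95% Poisson or conditional binomial intervals, and shares have Clopper-Pearson intervals. The index needed at least 10 gene reads in each library, and its interval (error rate 0.001) combined exact binomial limits of boundary and gene. The calling step was checked on simulated counts with known changes. The members and lists were chosen with earlier results of these data known, and older symbols of 15 listed genes were added after values were seen. Named were up to 10 called introns per direction, the 10 highest and 10 lowest called boundaries in genes of 500 or more reads in both libraries, the 12 balanced introns of highest share, the 10 members with most reads, and up to 3 members of each list with most reads. Counts of 5 or fewer were named. Introns with 1 end called, those with intervals apart, those with small RNA genes, genes with many members, and abundant protein-coding members without overlap were chosen after their values were seen, as were the balanced introns of listed genes.

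Introns were matched to GENCODE 29 (GRCh38) by Ensembl gene, strand and length of at least 50 bases, with spacing within 1000 bases of the gene's median. In all, 172490 matched. Sequences came from its transcripts, and no coordinates were converted. Some items that the naming rules cover are not reported here. Alternatives changed read minima, index size, scaling, gene ratio, overlap and masking. Python 3.11.15, numpy 2.4.6, pandas 2.3.3, scipy 1.17.1, matplotlib 3.10.9 were used, and TMM factors came from edgeR 4.0.16 in R 4.3.3.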

Additional observations from a re-analysis of the deposited data

How the results depend on the processing

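Of the 85 higher and 18 lower calls of single members, 74 and 13 were shared with the calls under gene ratios from junctions, 79 and 18 under exon-region medians and 85 and 17 under normalized coverage. Across these and the filters not given next, 71 to 116 were higher and 15 to 23 lower. With an index of at least 2 there were 30 and 7, and with at least 50 reads 47 and 10. Of the named boundaries, 17 had a value with gene ratios from junctions, where FAM160A2 E7_Da lost its call (index -2.21). With exon-region medians 20 of 20 and with normalized coverage 19 of 19 kept theirs. Introns called at both ends were 1 with an index of at least 2 (TRIM28) and 3 with at least 50 reads at each end (BRD2, TRIM28 and XPO1). Against the ratio of the intron's own junction they were 8 higher, adding EML3, RAD50 and RECQL4 (exons 10 to 11), and 1 lower in CCDC183. Against the other boundaries of the gene, an alternative added after seeing the data, they were 2 higher (TRIM28 and RNF123) and 1 lower (LAMB2). The cause was not tested. With the lower end in place of the mean, median shares were 10.3% and 12.8%, and introns with intervals apart were 33 higher in MIP/5FU and 7 higher in MIP101. Against the mean of all canonical junctions of the gene, introns with intervals apart were 18 and 1. In the 1102 introns with at least 50 junction reads, added after seeing the data, medians were 8.63% and 11.0%, with 27 introns apart and higher in MIP/5FU and 1 higher in MIP101. The summed ratio of members was 1.03 with TMM totals and 1.11 with junction totals. Within 1.5-fold 68.5% of pairs were balanced, within 3-fold 94.4%, and 245 introns were balanced with at least 50 reads at each end. No paired analysis was possible because each line has 1 library, and for the same reason no library could be left out.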
